A study of Mus musculus with 6 samples.

Results

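Matrix metalloproteinases (Mmp genes), the related ADAMTS proteases with thrombospondin motifs (Adamts genes) and the tissue inhibitors of metalloproteinases (Timp genes) were followed across 4 kinds of mouse cells. Members were every gene of the deposited table whose symbol names a numbered Mmp, a numbered Adamts or 1 of the 4 Timp genes, each read by 1 probe set, the brightest on average over the 6 arrays. This gave 37 genes of 18193 named on the array: 18 Mmp, 15 Adamts and 4 Timp genes. Total RNA was hybridised to 1 biotin-labelled array per sample. There were 2 arrays of dendritic cells derived from bone marrow (BMDC) and 2 of follicular dendritic cells grown in vitro (FDC). The SV40-transformed, FDC-like line FL-Y was measured on 1 array, and on another after an antibody to its lymphotoxin beta receptor had activated it. FL-Y is a single transformed line, and both of its arrays share that background. The labels give no strain, age, dose or time of activation, and they do not say whether the 2 arrays of a cell type came from separate cultures or animals. The p-values therefore measure only the spread between these arrays, which may be technical.

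Metalloproteinases are zinc enzymes that are made as inactive precursors and, once activated, cut collagens, gelatin, elastin and proteoglycans or release cell surface proteins. Adamts proteases cut proteoglycans such as aggrecan and versican, trim procollagens or process other matrix glycoproteins, and Timp proteins block the active site of many of these enzymes. In lymphoid tissue, stromal cells such as FDC build and remodel the scaffold of the B cell follicle, while dendritic cells, macrophages and neutrophils carry proteases of their own.

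The median signal of the arrays lay between 47.8 and 84.1, and their 20th percentile between 8.7 and 15.4 signal units. The 20th percentile is used below as a mark of background level, although a signal above it can also be background. Cell markers were read on the same arrays. Of 9 dendritic cell markers 7 were higher in BMDC, as were 8 of 8 macrophage and monocyte markers and 7 of 8 neutrophil markers. The neutrophil markers summed to 85022 and 151572 on the BMDC arrays against 1476 and 686 on the FDC arrays. Of 11 fibroblast and mural cell markers 7 were higher in FDC. Of 12 FDC markers 0 were higher and 3 were lower in FDC than in BMDC, while 9 were not called. The 3 lower ones were Fcgr2b (log2 difference of -7.03), Clu (-6.41) and Mfge8 (-2.18). The defining complement receptor Cr2 read 119.5 on FDC array 1 and 4.1 on FDC array 2, and Cxcl13, the chemokine of the follicle, 1288 and 64.5. Vcam1, an adhesion molecule of FDC, had signals of 108 and 875 in BMDC and 6959 and 5764 in FDC (4.27, adjusted p = 0.0569 by limma), and the B cell survival factor Tnfsf13b 137 and 547 against 4004 and 1265 (2.96, adjusted p = 0.107). Markers of other cells were higher in FDC too. Of 7 mast cell markers 3 were called, and the list summed to 5720 and 1126 in BMDC, 5744 and 9195 in FDC and 264 in FL-Y. Of 4 T cell markers 3 were called, and that list summed to 188 and 35.1 in BMDC, 1767 and 1049 in FDC and 79.7 in FL-Y. The part of these cells in the differences between FDC and BMDC or FL-Y was not tested. In these bulk samples fewer cells of a type and less RNA per cell cannot be told apart.

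**Figure D1:**
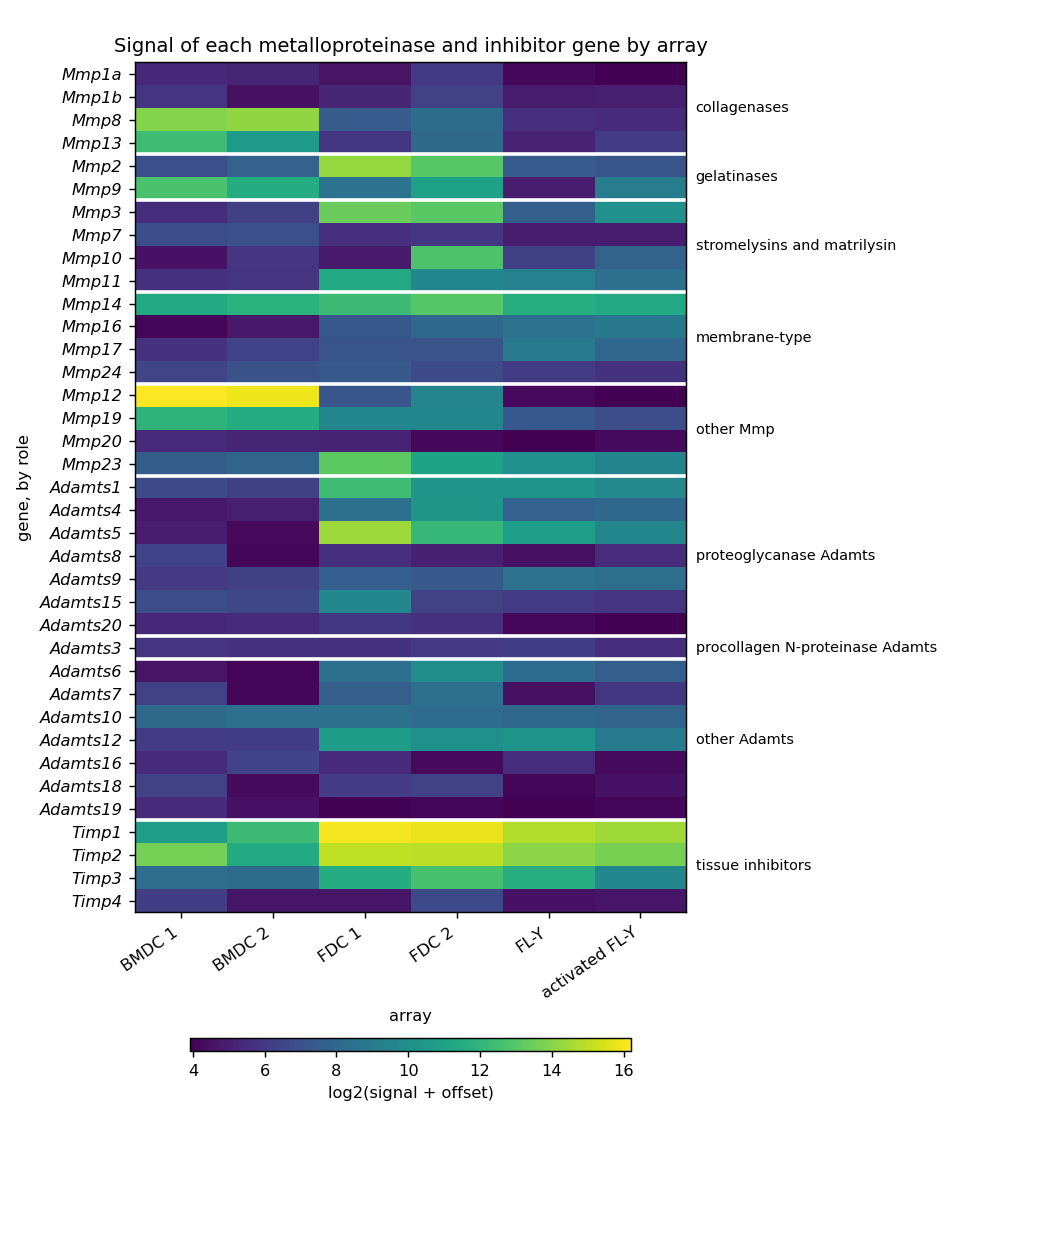
Each row is a gene, grouped by role, and each column is an array. Colour gives log2(signal + 14.1). Mmp8, Mmp9, Mmp12 and Mmp13 are brightest in the BMDC columns, but Mmp9 in the brighter FDC column comes close to the dimmer BMDC column. Mmp2, Mmp3, Adamts5 and Timp1 are brightest in the FDC columns. Adamts5 and Timp1 are bright in the FL-Y columns too, as is Mmp3 in activated FL-Y.

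FDC and BMDC expressed different metalloproteinases. In FDC the gelatinase Mmp2, the stromelysin Mmp3, 5 Adamts genes and the inhibitors Timp1 and Timp3 were higher. In BMDC the macrophage elastase Mmp12, the neutrophil collagenase Mmp8 and Mmp19 were higher. Values were compared as log2(signal + 14.1) with limma, and a gene counted as called at an adjusted p under 0.05. Of the 37 genes 27 had a mean signal high enough to be tested, and of these 12 were higher and 3 lower in FDC. Over all 12747 genes tested, 5.98% were higher and 5.45% lower in FDC. A gene bright in only one of the cell types passed the filter through that cell type, so these member counts describe the genes and support no statement about the family. Genes are described by role below, with the signals of BMDC arrays 1 and 2, then FDC arrays 1 and 2.

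**Figure D2:**
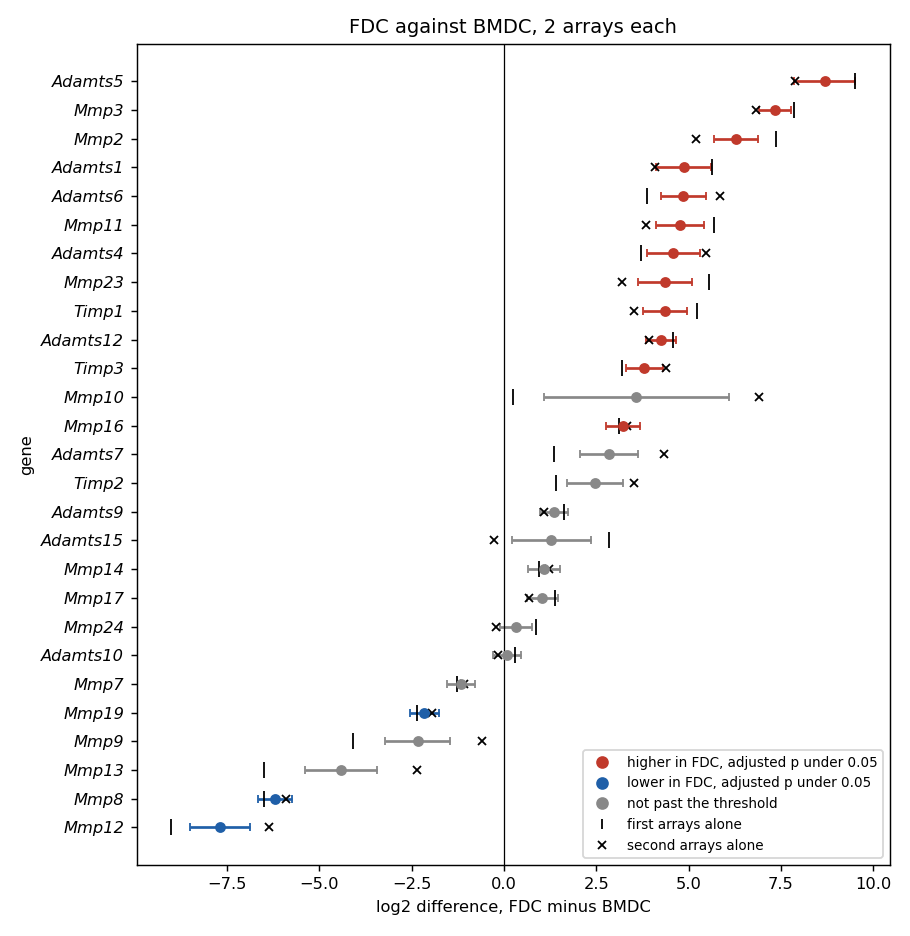
Points give the log2 difference of each of the 27 tested genes, FDC minus BMDC (2 arrays each), with bars of 1 standard error. Black marks give the difference between the first arrays alone and the second arrays alone. Adamts5, Mmp3 and Mmp2 lie farthest to the right and Mmp12 and Mmp8 farthest to the left, while the black marks of Mmp10, Adamts15 and Mmp9 lie far apart.

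Among the collagenases, which open the triple helix of fibrillar collagen, Mmp8 had signals of 15765 and 18604 on the BMDC arrays and 159 and 299 on the FDC arrays. Its log2 difference was -6.20 ± 0.45 (SE; adjusted p = 0.00335). Both BMDC values stood above both FDC values. Mmp13, collagenase-3, had signals of 5332 and 1479 in BMDC and 45.4 and 278 in FDC. The BMDC arrays were higher here too, but the difference of -4.42 ± 0.97 (SE) was not called (adjusted p = 0.0549 by limma). This difference was -5.57 with FDC array 2 left out. The interstitial collagenases Mmp1a and Mmp1b were too dim to test, with signals of at most 65.9 on every array.

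Of the gelatinases, Mmp2 had signals of 106 and 211 in BMDC and 19842 and 8292 in FDC, means of 158 ± 73.8 and 14067 ± 8167 (SD, n = 2). It was higher in FDC by 6.29 ± 0.60 (SE; adjusted p = 0.00538), and its other probe set gave 6.18. Mmp9, the gelatinase of neutrophils and macrophages, had signals of 6559 and 2967 in BMDC and 373 and 1956 in FDC. The groups did not overlap, and the difference of -2.34 ± 0.88 (SE) did not pass the threshold (adjusted p = 0.191). FDC array 1 minus BMDC array 1 gave -4.09 and the other pair -0.60, and with FDC array 2 left out the difference was -3.52.

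Among the stromelysins, which cut proteoglycans and activate other precursors, Mmp3 had signals of 32.1 and 61.2 in BMDC and 10689 and 8578 in FDC. The difference of 7.35 ± 0.43 (SE; adjusted p = 0.00274) had the lowest adjusted p of all members. Mmp10, stromelysin-2, had signals of 9.2 and 45.3 in BMDC and 13.7 and 7129 in FDC. A single FDC array carried this gene, and the difference of 3.58 ± 2.51 (SE) was not called (adjusted p = 0.467 by limma). Without FDC array 1, which leaves that single FDC array, the difference was 7.59. Mmp11, stromelysin-3, which is activated inside the cell by furin, had signals of 37.8 and 40.7 in BMDC and 2643 and 770 in FDC. It was higher in FDC by 4.76 ± 0.65 (SE; adjusted p = 0.0147). The matrilysin Mmp7 was dim, at 103 and 110 in BMDC and 34.6 and 44.6 in FDC, with a difference of -1.17 ± 0.37 (adjusted p = 0.136).

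Membrane-type enzymes act at the cell surface, and Mmp14 is known for activating the precursor of Mmp2 together with Timp2. Mmp14 had signals of 2676 and 3441 in BMDC and 5127 and 8019 in FDC, a difference of 1.08 ± 0.43 (SE; adjusted p = 0.215) that was not called. All 3 of its probe sets gave differences between 1.08 and 1.37, and 0 were called. Mmp16 had signals of 3.3 and 12.0 in BMDC and 138 and 247 in FDC, higher in FDC by 3.22 ± 0.47 (SE; adjusted p = 0.0176). Both BMDC signals lay under the background mark, so the size depends on the offset; the call was lost without BMDC array 1 (adjusted p = 0.0702), and the gene's other tested probe set was not called (1.18, adjusted p = 0.308). Mmp17, which is held by a lipid anchor, and Mmp24 had differences of 1.03 ± 0.42 (adjusted p = 0.222) and 0.33 ± 0.43 (adjusted p = 0.712).

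Mmp12, the macrophage elastase, had signals of 76078 and 61117 in BMDC and 133 and 723 in FDC, means of 68598 ± 10579 and 428 ± 417 (SD, n = 2). The difference was -7.70 ± 0.81 (SE; adjusted p = 0.00706). Mmp19 had signals of 3851 and 2951 in BMDC and 743 and 746 in FDC. It was lower in FDC by a log2 difference of -2.16 ± 0.38 (SE; adjusted p = 0.0305), but the call was lost whichever array was left out (adjusted p of 0.0786 to 0.136). Its other probe set was not called (-2.41, adjusted p = 0.0709). Mmp23, an enzyme anchored near its amino end, had signals of 175 and 222 in BMDC and 8839 and 2136 in FDC. It was higher in FDC by 4.37 ± 0.73 (SE; adjusted p = 0.0253), as was its other probe set by 4.08, and the first call was lost without either BMDC array (adjusted p of 0.0800 and 0.0688). The macrophage and neutrophil markers above moved in the same direction as Mmp8, Mmp12 and Mmp19, and their part in these differences was not tested. Mmp20, the enzyme of tooth enamel, was too dim to test.

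The Adamts enzymes that cut proteoglycans were higher in FDC where they differed. Adamts5, a main aggrecanase, had signals of 16.1 and 4.5 in BMDC and 21911 and 4350 in FDC. It was higher in FDC by 8.69 ± 0.83 (SE, adjusted p = 0.00539 by limma). Its signal on BMDC array 2 lay under the background mark, so the size depends on the offset. All 3 of its tested probe sets were called, with differences of 5.74 to 8.69. Of all probe sets tested, 4.83% were called higher and 4.09% lower. The probe sets of a gene share the same arrays and are not independent. The remaining Adamts5 probe set was too dim to test (0.05). Adamts1 had signals of 93.6 and 62.2 in BMDC and 5358 and 1280 in FDC, a difference of 4.86 ± 0.74 (SE; adjusted p = 0.0196). Adamts4, another aggrecanase, had signals of 11.8 and 16.8 in BMDC and 322 and 1351 in FDC. The difference was 4.58 ± 0.72 (SE, adjusted p = 0.0216 by limma). Its signal on BMDC array 1 lay under the background mark, so this size too depends on the offset. For both genes every FDC signal stood above every BMDC signal, yet the calls were lost without BMDC array 1 (adjusted p of 0.0508 for Adamts1 and 0.0685 for Adamts4) or BMDC array 2 (0.0663 and 0.0609). Adamts9 had a difference of 1.36 ± 0.38 (adjusted p = 0.104). Adamts15 rested on a single array: its signals were 98.6 and 82.6 in BMDC and 791 and 66.2 in FDC. The difference of 1.28 ± 1.08 was not called (adjusted p = 0.550 by limma), and it was 2.95 with FDC array 2 left out.

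Of the remaining Adamts genes, Adamts12, which cuts cartilage oligomeric matrix protein, had signals of 53.2 and 57.9 in BMDC and 1595 and 1080 in FDC. The pairs lay close together and the difference was 4.25 ± 0.40 (SE; adjusted p = 0.00538). Adamts6 had signals of 9.5 and 3.6 in BMDC and 330 and 1000 in FDC (999.7 as deposited). The difference was 4.85 ± 0.61 (SE, adjusted p = 0.0118 by limma), and its other probe set was called too (4.04). On both probe sets both BMDC signals lay under the background mark, so these sizes depend on the offset. Adamts7, which shares the substrate of Adamts12, had signals of 64.6 and 3.5 in BMDC and 188 and 340 in FDC. The difference of 2.85 ± 0.79 was not called (adjusted p = 0.101 by limma), and it was 3.93 without BMDC array 1. Adamts10, a partner of microfibrils, differed least of the tested members, by 0.07 ± 0.38 (adjusted p = 0.934). Adamts3, Adamts8, Adamts16, Adamts18, Adamts19, Adamts20, Mmp1a, Mmp1b, Mmp20 and Timp4 were not tested, and their signals ranged from 1.1 to 88.0 over the 6 arrays.

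Among the inhibitors, Timp1 had signals of 1796 and 5226 in BMDC and 67737 and 59865 in FDC. It was higher in FDC by 4.37 ± 0.60 (SE; adjusted p = 0.0147). Timp3, the inhibitor that binds to the matrix and also blocks Adamts4 and Adamts5, had signals of 303 and 291 in BMDC and 2911 and 6374 in FDC, a difference of 3.80 ± 0.50 (SE; adjusted p = 0.0135). Of its 4 probe sets 2 were called, and the call was lost without BMDC array 2 (adjusted p = 0.0509). Timp2 had signals of 12883 and 2806 in BMDC and 34003 and 32533 in FDC. The FDC arrays lay close together and the BMDC arrays far apart, so the difference of 2.46 ± 0.76 (SE) was not called (adjusted p = 0.128 by limma). This difference was 3.56 without BMDC array 1, the brighter of that pair. Of the 5 tested Timp2 probe sets 1 was called (4.20, adjusted p = 0.0430), and all 5 gave differences of at least 2.46.

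Of the Mmp genes measured here 9 lie in a cluster of 10 on chromosome 9, in the order Mmp13, Mmp12, Mmp1b, Mmp3, Mmp1a, Mmp10, Mmp8, Mmp27, Mmp20 and Mmp7, of which Mmp27 was not analysed here. Neighbours in this cluster had opposite patterns. Mmp13, Mmp12 and Mmp8 were brightest in BMDC, whereas Mmp3, between them, was bright in FDC and dim in BMDC, and Mmp10 was bright on FDC array 2 alone. Mmp1b, Mmp1a and Mmp20 had no signal above 65.9 on any array.

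**Figure D3:**
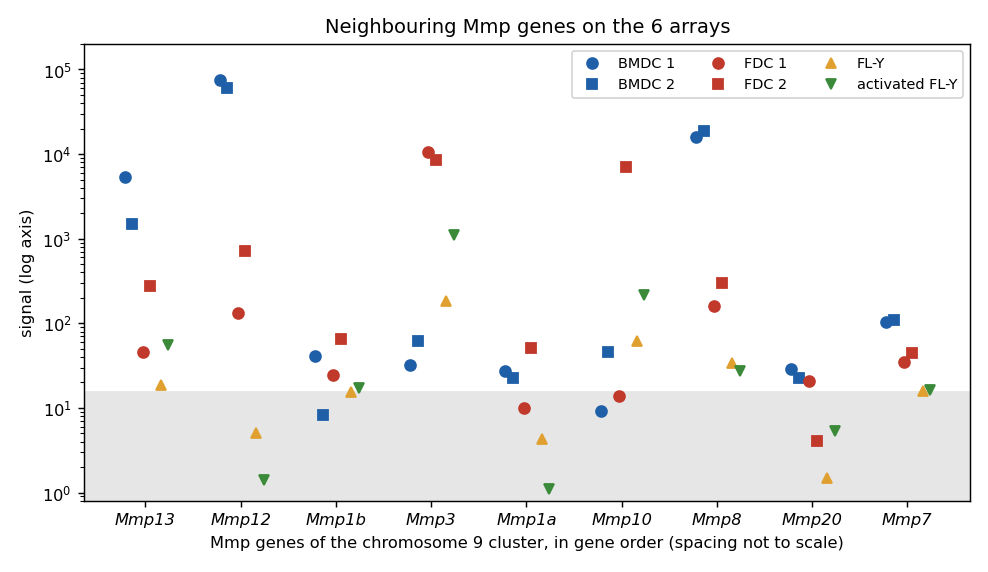
Signal on a log axis for the 9 measured genes of the chromosome 9 cluster, in gene order, with 1 point per array. The grey band lies under 15.4, the highest of the arrays' 20th percentiles. BMDC points lie highest at Mmp13, Mmp12 and Mmp8, and FDC points lie highest at Mmp3.

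The promoters of these genes were compared because members of 1 cluster moved in opposite directions. AP-1, the Fos and Jun family of transcription factors, is a known regulator of several metalloproteinase genes. RefSeq promoters (GRCm38.p6, 250 bases before to 50 after an annotated start) were held for 23 of the 37 genes. The rest of the genes, which include Mmp2, Mmp9 and Adamts5, were not searched. The promoters held were searched on both strands for the AP-1 motif TGANTCA and the TATA box letters TATAAA, whose matches did not overlap. Of 32851 promoters of this length 7.81% held the AP-1 motif, 13.6% the TATA letters and 1.54% both. In the cluster 8 of 11 promoters, from 8 of 9 genes, held both. Of the 15 promoters available for 14 other member genes 0 held the AP-1 motif and 1, that of Adamts1, held the TATA letters. The 110 bases before the annotated start are shown 5′ to 3′, on the plus strand of chromosome 9, for the cluster genes with signal in these cells, with AP-1 and TATA matches in capitals. The Mmp3 stretch lies at chr9:7445712-7445821, Mmp10 at chr9:7502232-7502341, Mmp13 at chr9:7272404-7272513, Mmp12 at chr9:7347264-7347373 (the later of its 2 starts) and Mmp8 at chr9:7558319-7558428.
Mmp3: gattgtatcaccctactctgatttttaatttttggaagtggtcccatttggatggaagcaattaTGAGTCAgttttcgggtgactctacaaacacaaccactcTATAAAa
Mmp10: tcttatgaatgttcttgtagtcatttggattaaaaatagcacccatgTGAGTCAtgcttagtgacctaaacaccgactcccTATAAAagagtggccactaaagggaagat
Mmp13: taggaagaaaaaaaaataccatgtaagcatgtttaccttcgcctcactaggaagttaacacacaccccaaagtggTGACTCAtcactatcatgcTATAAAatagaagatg
Mmp12: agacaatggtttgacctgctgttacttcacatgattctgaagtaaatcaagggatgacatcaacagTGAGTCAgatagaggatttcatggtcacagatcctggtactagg
Mmp8: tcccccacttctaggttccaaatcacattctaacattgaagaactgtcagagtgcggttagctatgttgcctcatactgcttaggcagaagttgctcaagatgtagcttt

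The AP-1 match began 46 bases before the annotated start in Mmp3, 63 in Mmp10, 35 in Mmp13 and 44 in Mmp12. Thus the FDC-high Mmp3 and the BMDC-high Mmp12 shared the motif, as did Mmp13, which was brighter in BMDC but not called. The BMDC-high Mmp8 had none in this window. The TATA letters of Mmp12 lie outside the stretch shown. Those of Mmp8, on the other strand, begin 3 bases before the start and run past the end of the stretch, so they are not capitalised. The earlier start of Mmp12 had no AP-1 match, and the arrays do not tell which of its starts was used. A match of letters is no evidence of binding.

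The 2 FDC arrays differed from each other in several members. Of 36 members with signal above the background mark on either FDC array, 6 were at least 2 higher on the log2 scale (4-fold) on array 2 and 4 at least 2 lower. Over all genes these shares were 3.17% and 3.56%. Mmp10, Mmp9, Mmp12, Mmp13, Adamts4 and the dim Timp4 were higher on array 2, with Mmp10 at 8.01 and the other 5 between 2.02 and 2.35. Adamts15 (-3.33), Adamts5 (-2.33), Adamts1 (-2.05) and Mmp23 (-2.04) were lower on array 2. The summed macrophage markers were 3415 on FDC array 1 and 1730 on array 2, and the neutrophil markers 1476 and 686, but single markers went both ways. Lyz2 read 1449 and 557 and Cd14 1084 and 446 on FDC arrays 1 and 2, whereas Csf1r read 168 and 243 and Adgre1 87.7 and 144. The summed mast cell markers were 5744 on array 1 and 9195 on array 2. The inflammatory cytokine Il1a, an inducer of metalloproteinases, had signals of 21.4 and 913 on FDC arrays 1 and 2. The part of these cells and of Il1a in the differences was not tested. Between the BMDC arrays 4 members were at least 2 lower on array 2, Timp2 (-2.19) and the dim Adamts7, Adamts8 and Adamts18, and 0 at least 2 higher, against 2.42% and 2.97% of all genes.

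FL-Y was set against cultured FDC to see which of these genes the transformed line shares with them. With 1 array of FL-Y there is no test, and differences of at least 2 on the log2 scale are counted. Of 36 members above the background mark on an array, 0 were higher and 10 lower in FL-Y, against 2.67% and 5.9% of all genes. Between the paired arrays of 1 cell type 6.73% (FDC) and 5.39% (BMDC) of genes differed by as much in either direction, and 8.56% did so between FL-Y and FDC, so this difference in size is not rare between arrays. Mmp2 and Mmp3 stood farthest apart. Mmp2 had a signal of 161 in FL-Y against 19842 and 8292 in FDC, a log2 difference of -6.20. Mmp3 was at 185 against 10689 and 8578, a difference of -5.59. Mmp9 (-4.89), Mmp12 (-4.10), Adamts7 (-3.57), Mmp10 (-2.55), Adamts5 (-2.46), Mmp8 (-2.28), Mmp19 (-2.26) and the dim Adamts18 (-2.10) made up the other 8. Mmp12, Adamts7 and Adamts18 lay under the background mark in FL-Y, so 3 of the 10 differences rest on a background-level signal there. Mmp10, at 62.0 in FL-Y, lay between its FDC signals of 13.7 and 7129, so its difference rests on FDC array 2. Mmp9, Mmp12 and Adamts5 also differed by at least 2 between the FDC arrays. As many members, 10 of 36, differed by this much between those 2 arrays, in either direction.

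The inhibitors and several Adamts genes had more similar signals in the line. Timp1 was at 28804 in FL-Y (-1.14), Timp2 at 17172 (-0.95) and Timp3 at 3061 (-0.49). Adamts12 was at 1273, between the FDC signals (-0.04), and Adamts1 at 1248 lay just under the lower FDC array (-1.06). Mmp17, at 499 against 124 and 121 in FDC, had the largest positive difference (1.91), which reached 2 when arrays were rescaled to one median or quantile normalized or with a floor in place of the offset. Mmp14 was at 3031 in FL-Y, within the range of the BMDC arrays (-1.08 against FDC).

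Against BMDC, FL-Y showed 12 of 37 members at least 2 higher and 6 at least 2 lower, where 6.28% and 9.28% of all genes were so (15.6% in either direction). This comparison shares its FL-Y array with the one above. The 12 were Adamts5 (6.23), Adamts12 (4.21), Mmp16 (4.15), Adamts6 (3.86), Adamts1 (3.80), Mmp11 (3.53), Timp3 (3.31), Timp1 (3.23), Adamts4 (2.98), Mmp17 (2.94), Mmp23 (2.40) and Adamts9 (2.40). The 6 were Mmp12 (-11.80), Mmp8 (-8.48), Mmp9 (-7.23), Mmp13 (-6.42), Mmp19 (-4.42) and Mmp7, which lay at the threshold. Mmp2, by contrast, had a signal in FL-Y (161) that lay between those of BMDC (106 and 211). Both BMDC signals of Mmp16 and Adamts6 lay under the background mark, as did 1 each of Adamts4 and Adamts5. Mmp12 lay under it in FL-Y, so the sizes of these differences depend on the offset. At their smallest over the alternatives Adamts4 differed by 1.48, Adamts9 by 1.12 and Mmp7 by -1.22, short of the threshold. Macrophage markers summed to 594 and neutrophil markers to 336 on the FL-Y array, against at least 118279 and 85022 on a BMDC array, and their part was not tested.

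Activation of the lymphotoxin beta receptor, which drives the maturation of lymphoid stroma through NF-kB, was followed on the other FL-Y array. The adhesion molecule Icam1, a known target of this pathway, had signals of 115 before and 789 after activation, a log2 difference of 2.64. Icam1 rose most of the 12 FDC markers and was picked after its value was seen. Other FDC markers went both ways, with Tnfsf13b at 1.08, Vcam1 at 0.39, Madcam1 at -0.78 and Cxcl13 at -1.92. Cxcl13 lay under the background mark after activation. Of 31 members above the background mark on either array, 2 were at least 2 higher and 0 at least 2 lower, against 0.259% and 0.998% of all genes (1.26% in either direction). Mmp9 had signals of 15.4 before and 541 after (4.23), and its other probe set 25.3 and 441 (3.53). Its first signal was close to the background mark of 12.1, so the size depends on the offset and ran from 3.14 to 5.14 over the alternatives. Mmp3 had signals of 185 and 1106 (2.49), and 2.29 to 2.85 over the alternatives. After activation Mmp3 still lay under both FDC arrays, while Mmp9 lay between them. There is no replicate, and these differences compare 2 arrays of 1 line.

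Smaller differences were counted at 1 on the log2 scale (2-fold), where 6 members were higher and 5 lower against 4.3% and 11.3% of all genes. Mmp10 went from 62.0 to 218 (1.61), Mmp13 from 18.9 to 54.8 (1.06), and the dim Adamts7 and Adamts8 completed the 6. Of the 8 cluster genes with the AP-1 motif 3 (Mmp3, Mmp10 and Mmp13) were thus at least 1 higher. Of the other 5, Mmp7 (0.01) and Mmp1b (0.09) lay above the background mark with nearly equal signals, and Mmp12, Mmp1a and Mmp20 lay under it on both arrays. Mmp9, Adamts7 and Adamts8, also at least 1 higher, had no promoter held and were not searched for the motif. Timp3 had signals of 3061 before and 806 after (-1.91), and its 4 probe sets gave -1.91 to -0.52. Adamts12 went from 1273 to 517 (-1.28), Adamts5 from 1760 to 735 (-1.24) and Mmp17 from 499 to 237 (-1.03), and the dim Adamts16 was the fifth. At their smallest over the alternatives Adamts12, Adamts5 and Mmp17 differed by -0.78, -0.90 and -0.71, short of the threshold. Timp1 (-0.34), Timp2 (-0.36) and Mmp14 (-0.21) had smaller differences. The median difference of all genes was -0.09, and 0.21 when arrays were rescaled to one median, under which the Timp3 difference was -1.56.

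**Figure D4:**
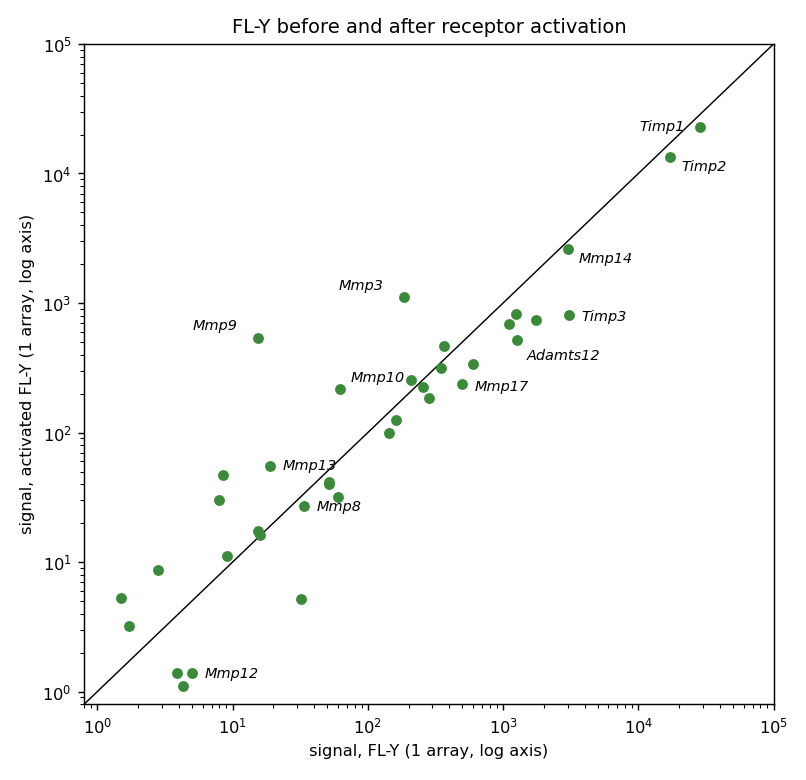
Signal of each of the 37 genes in FL-Y and in activated FL-Y (1 array each, both axes logarithmic), with the line of equal signal. Mmp9 and Mmp3 lie far above the line, Timp3 and Adamts12 below it, and Timp1, Timp2 and Mmp14 close to it.

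Other genes of the pathway were read from lists in the comparison of FDC with BMDC, in which 11.4% of all genes tested were called in either direction. As with the members, a gene bright only in FDC passed the filter through FDC, so these counts describe the genes named and do not set a list apart. Of 16 substrates on the array 11 were tested, and of these 8 were higher and 1 lower in FDC. The 5 not tested were Col2a1, Eln, Acan, Bcan and Ncan, with differences of -1.11 to 1.80. Those with the largest differences were decorin, Dcn (9.68 ± 1.19 SE; adjusted p = 0.0108, and 0.0574 with a floor in place of the offset), the collagens Col3a1 (9.15) and Col1a1 (8.89) and biglycan, Bgn (8.83). The 1 that was lower was Vwf, named after its value was seen. Of 8 tested genes for other inhibitors and clearance 5 were higher and 0 lower: Pcolce, which enhances procollagen processing (9.38), Tfpi2 (6.09), the membrane-anchored inhibitor Reck (3.08; adjusted p of 0.125 and 0.0638 without BMDC array 1 or 2 and 0.0892 without FDC array 1), Sdc4 (2.54; 0.110, 0.0872 and 0.0800) and the clearance receptor Lrp1 (2.10; adjusted p = 0.0498). Reck was at 1353 and 577 in FDC and at 95.3 in FL-Y, beside 65.0 and 130 in BMDC.

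Of 5 tested genes of activation and the plasmin system 2 were higher and 0 lower: the plasminogen activator Plat (5.12 ± 0.61 SE; adjusted p = 0.0101) and the proprotein convertase Pcsk5 (6.47 ± 1.28; adjusted p = 0.0416), the latter not without BMDC array 1 or 2 (adjusted p of 0.0721 and 0.120). Of 9 tested astacins and Adam proteases Bmp1, which trims the other end of procollagens, was higher (4.98 ± 0.40) and Adam8, a sheddase of leukocytes, lower (-6.36 ± 0.45). Of 4 tested ADAMTS-like genes Adamtsl1 was higher (5.24 ± 0.93; adjusted p = 0.0306), not without BMDC array 1 (0.0889). Of 6 cell surface partners Cav1 was higher (4.22 ± 0.48).

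Of 10 tested transcription factors of Mmp genes 1 was called, a share near that of all genes. The AP-1 subunit Fosl1 was higher in FDC by 4.67 ± 0.53 (SE; adjusted p = 0.00860). Its signals were 42.2 and 112 in BMDC, 1805 and 2512 in FDC, 2367 in FL-Y and 3795 after activation. Fos had 3274 and 587 in BMDC and 8937 and 2767 in FDC (1.83 ± 0.98; adjusted p = 0.345), and Jun had a difference of 0.25 ± 0.46 (adjusted p = 0.797). Of 10 inducing cytokines and receptors the oncostatin M receptor Osmr (7.13 ± 0.58) and Il6 (4.35 ± 0.78) were higher and Il1b (-4.82 ± 0.58) lower in FDC. The Il6 call did not hold with BMDC array 2 left out (adjusted p = 0.0709), nor with FDC array 2 left out (0.0824).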

How the data were processed

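Each array was deposited by the authors as linear intensity values, 1 for each probe set. The mean after trimming 2% at each end was 500.0 on all 6 arrays, which shows a scaling to one level. How background was handled, and with which software, is not given in the sources used here. Detection calls were not analysed here. By the platform annotation 34945 probe sets named 1 gene and 932 several, and 9160 were absent from it. The 64 control probe sets were left out.

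The scale was log2(signal + 14.1), where 14.1 is the median over arrays of the 20th percentile. Every log2 difference is on this scale, which understates changes of dim genes. Probe sets with a mean over the 4 FDC and BMDC arrays above the 40th percentile (a signal of 46.4) were tested, 27022 in all, with lmFit and eBayes of limma 3.58.1 (R 4.3.3), two-sided, with Benjamini-Hochberg adjustment over all of them. An exact permutation test of 2 against 2 arrays cannot give a p below 0.333, so none was run. The fit was tested on simulated data. FL-Y was described without a test. The members, lists and alternatives were chosen with earlier results of these data known. Every member is named, with up to 4 called genes of each pathway list, those of largest difference (if 0 were called, the top 2). Lrp1, Vwf, Fos, Jun, Il1a, Icam1, Plaur, Plau, A2m, the marker genes given with values and the untested substrates were named beyond this rule, after their values were seen. The 3′ to 5′ ratio of the Gapdh control lay between 0.808 and 0.904 on the 6 arrays. The ratio of labelling to hybridisation controls was 0.0546 and 0.0670 on BMDC and FDC array 1, 0.245 and 0.155 on array 2, and 0.0354 and 0.0462 on the FL-Y arrays. The number of arrays limits the precision.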

Additional observations from a re-analysis of the deposited data

How the results depend on the processing

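Of the 15 members called between FDC and BMDC, 9 kept their call under every alternative in which they were tested, and 6 lost it under at least 1 (Adamts1, Adamts4, Mmp16, Mmp19, Mmp23 and Timp3). Of the 12 tested members that were not called, 6 were called under at least 1 alternative. For Adamts7, Adamts15, Mmp9, Mmp10 and Timp2 this was only with 1 array left out, and for Mmp13 under other settings too. A fit with 1 array left out holds no spread within that group, so calls gained that way are no support. The number called ranged from 10 to 15 with 1 array left out (8 to 12 higher, 2 to 4 lower) and from 12 to 16 under the other settings, which were a floor of 3.3 or an offset of 52.2 in place of the main offset, quantile normalization, rescaling to one median, the median of all probe sets, no filter and a stricter filter. Mmp19 and Mmp23 lost their call with the floor (adjusted p = 0.0540 and 0.0513) and with no filter (0.0773 and 0.0542), Mmp13 gained one under 4 of these settings, and the cause was not tested. Adamts10, not called, turned to -0.047 without BMDC array 1 and -0.036 without FDC array 1, and Adamts15 ranged from -0.38 without FDC array 1 to 2.95 without FDC array 2. Over all probe sets 1305 were higher and 1106 lower, against 793 and 661 with the floor and 792 and 636 with no filter. Pcsk5, Reck, Sdc4, Adamtsl1 and Il6 also lost their call under both of these settings. BMDC and FDC share array numbers, 1 of which the labels do not give. With a replicate block for array number, 15 members were called, the same 15, while Reck, Adamtsl1 and Il6 lost their call (adjusted p = 0.0680, 0.0643 and 0.0651); deviations of same-numbered arrays correlated at r = 0.109 across probe sets.

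At 1 instead of 2 on the log2 scale, 24 members differed between FL-Y and FDC (2 higher, 22 lower), 10 were lower in FL-Y than in BMDC, and 11 differed on activation (6 higher, 5 lower). Mmp17 was the 1 member at least 2 higher in FL-Y than in FDC with the floor, quantile normalization or rescaling to one median, which moved the median of all genes from -0.13 to 0.19. With the floor 11 were lower in FL-Y than in BMDC, and 4 differed on activation (1 lower). With 1 array left out, 11 to 12 differed between FL-Y and FDC, and 19 between FL-Y and BMDC. Mmp13 lay just short of 2 below FDC in FL-Y. Signals near the 20th percentile set no firm size for a difference.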

Other observations

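Some genes of the plasmin system and other protease regulators differed between the FDC arrays, in both directions. Plaur, the urokinase receptor, had signals of 366 on FDC array 1 and 4349 on array 2, and urokinase, Plau, 196 and 1173. The other activator, Plat, went the other way, with 1466 and 504. Neither Plaur nor Plau was called between FDC and BMDC (adjusted p = 0.290 and 0.856 by limma). The convertase Pcsk5 had signals of 16810 and 1184 on the same arrays, and the broad protease inhibitor A2m 1116 and 82.5. In FL-Y these were 1267 for Plaur, 188 for Plau, 6.0 for Pcsk5 and 5.0 for A2m, the last 2 under the background mark. These genes belong to the lists above and were picked here after their values were seen.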
